A study of Mus musculus with 19 samples.

Results

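The potassium channel genes of neurons and the genes of their beta subunits were followed in the brain of SCA17 knock-in (KI) mice and wild-type (WT) mice. The group held 41 genes of 13 subfamilies, chosen by name from the 41128 genes of the deposited count table, with earlier results of these data known. All 41 were among the 16841 genes with enough reads to be tested in all libraries together. With the cerebellar libraries alone, 40 of them had enough reads. SCA17 KI mice carry an expanded polyglutamine tract in the endogenous gene for TBP, the TATA box-binding protein. They are a germline line, obtained with EIIa-Cre, so every cell type of the brain carries the mutant allele. The RNA of C57BL/6 mice aged 3 months was taken from prefrontal cortex (PFC in the plots), cerebellum (CB) and striatum (STR), with 3 WT and 4 KI libraries of the cerebellum and 3 libraries of each genotype in the other regions. The comparison of KI with WT asks which transcripts differ in each region, and the comparison of WT regions gives the level from which they start.

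Potassium channels let potassium leave the neuron and so return the membrane to rest after a spike, set the interval between spikes and hold the resting potential. Voltage-gated (Kv) channels are built from pore-forming alpha subunits, to which cytoplasmic partners attach: Kv beta subunits join Kv1 channels, and the calcium-binding KChIP proteins join Kv4 channels. Inward rectifiers and tandem-pore (K2P) channels carry resting currents, and BK, SK and sodium-activated channels open with intracellular calcium or sodium. Fast-spiking neurons and Purkinje cells rely on Kv3 and BK channels, while inward rectifiers hold medium spiny neurons, the output cells of the striatum, at rest, and Kv1 and Kv4 currents delay their spikes.

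Library totals ran from 10639110 to 17431284 counts. Levels are given as CPM, counts scaled to the same library size for all libraries, with TMM factors, and as RPKM (CPM per kilobase of exon) where genes are compared with each other. The labelled regions were checked with marker genes. The summed level of 12 medium spiny neuron markers was 13695 to 16025 CPM in WT striatum and at most 1369 CPM in the other WT libraries. The summed level of 10 Purkinje cell markers was 7242 to 7678 CPM in WT cerebellum and at most 1985 CPM elsewhere in WT. The summed level of 10 cortical pyramidal markers was 934 to 1744 CPM in WT prefrontal cortex and at most 679 CPM in the other WT libraries. Choroid plexus markers reached 1563 to 9010 CPM in all 6 striatal libraries. They also reached 1980 CPM in WT cerebellum replicate 1 and 4967 CPM in KI cerebellum replicate 3, against 20.9 to 45.0 CPM in the other 5 cerebellar libraries. One WT library of the prefrontal cortex, replicate 3, held 451 CPM of olfactory bulb markers, against 7.74 to 37.3 CPM in the other 5 libraries of that region.

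Few of these genes passed the test between genotypes. In the striatum *Kcnab1*, which encodes the Kv beta 1 subunit, fell 1.61-fold in KI mice. In the cerebellum *Kcnh3*, which encodes the Kv12.2 channel, fell 2.64-fold from a level of about 1.98 CPM. No gene of the group passed this test as higher in any region, though DESeq2 and other settings given with *Kcnk2* called that gene higher in the cerebellum, and none passed in the prefrontal cortex. At an unadjusted p under 0.05, 2 genes were higher and 7 lower in KI cerebellum, 1 higher and 5 lower in KI striatum, and 1 higher and 5 lower in KI prefrontal cortex, where DESeq2 also called 0. These are 22.0%, 14.6% and 14.6% of the 41 genes, against 10.1%, 8.12% and 5.93% of all tested genes. The genes were chosen with earlier results of these data known, which can raise such shares, so they are not a test of the group. Of the genes tested, 0.315% passed as lower and 0.517% as higher in cerebellum, 0.19% as lower and 0.392% as higher in striatum, and 0.0178% as lower and 0.0891% as higher in prefrontal cortex. The test was edgeR's quasi-likelihood test in one fit of all 19 libraries, with Benjamini-Hochberg adjustment over all tested genes and a threshold of 0.05. No gene of the group passed the test of a difference in KI effect between regions. That test called 0.0119% of all genes for striatum and cerebellum, 0.0% for striatum and prefrontal cortex and 0.0178% for cerebellum and prefrontal cortex. At an unadjusted p under 0.05, the difference was reached by 5 of the 41 genes (12.2%, against 6.69% of all genes) for striatum and cerebellum, 3 (7.32%, against 4.41%) for striatum and prefrontal cortex and 4 (9.76%, against 6.12%) for cerebellum and prefrontal cortex.

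**Figure D1:**
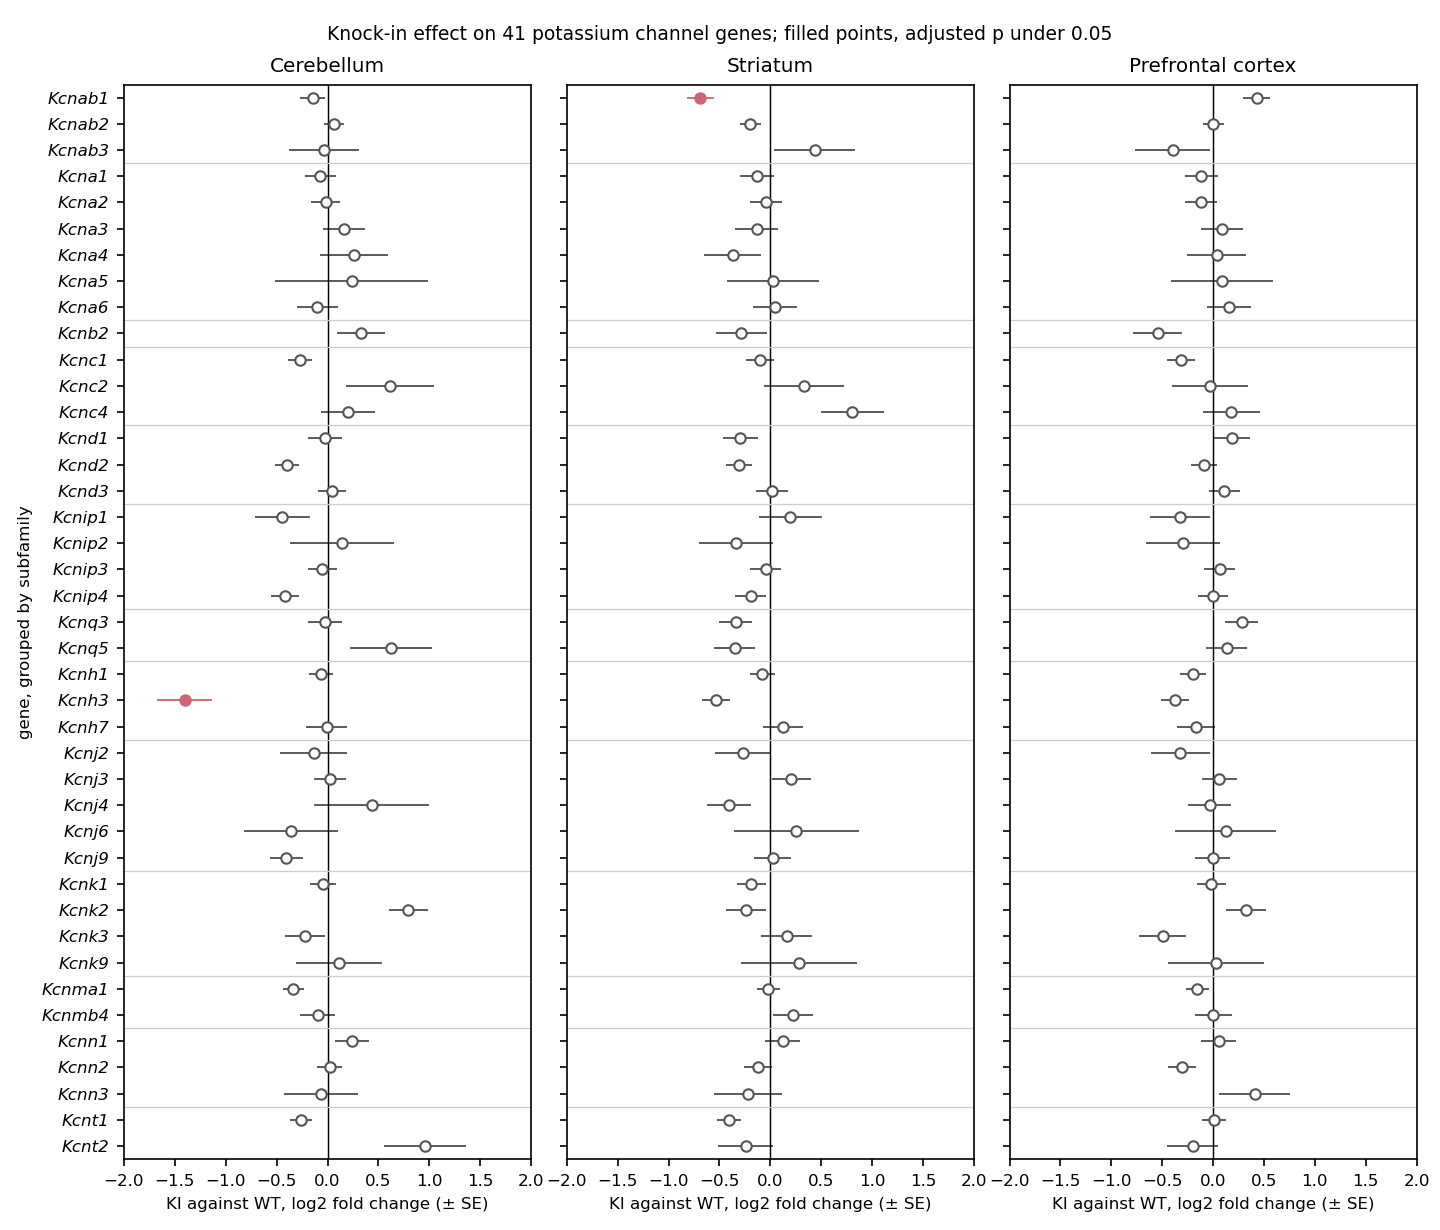
Log2 fold change of KI against WT on the horizontal axis, with its standard error, for each of the 41 genes in each of the 3 regions, with lines between subfamilies. The filled points, *Kcnh3* in the cerebellum at -1.40 and *Kcnab1* in the striatum at -0.69, are the 2 that passed the test.

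The fold changes below the threshold leaned to lower values in the striatum. There, 26 of the 41 genes (63.4%) had a negative log2 fold change, against 51.5% of all tested genes. The median was -0.12, against a median of -0.0073 over all tested genes. In the cerebellum 24 of 41 (58.5%, against 48.2%) were negative, with a median of -0.028 against 0.0073 over all tested genes. For the prefrontal cortex these were 20 of 41 (48.8%, against 49.5%), with a median of 0.0011 against 0.0019. Counting libraries, 10 of the 41 genes (24.4%) had all KI striatal libraries below all WT ones, where 8.46% of all tested genes did. None had all KI striatal libraries above all WT ones, where 5.65% of all tested genes did. In the cerebellum 7 genes (17.1%) had all KI libraries below all WT ones against 6.47% of all genes, and 1 gene, *Kcnk2*, had all of them above, against 5.82%. Only 3 genes of the prefrontal cortex (7.32%) were below without overlap, against 4.32% of all genes, and 1 gene, *Kcnab1*, was above, against 4.38%. These shares too belong to genes chosen with earlier results known, and were not tested. The median standard error of a log2 fold change was 0.20 for cerebellum, 0.19 for striatum and 0.18 for cortex.

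Among the Kv beta subunits, which resemble aldo-keto reductases and join Kv1 channels, *Kcnab1* (ENSMUSG00000027827, chromosome 3, 65109384 to 65378223 in GRCm38, plus strand) showed opposite differences in the striatum and the prefrontal cortex. In the striatum it was at 647, 770 and 685 CPM in the WT libraries and at 397, 490 and 418 CPM in the KI libraries. Every KI library was below every WT library. The group means were 701 ± 62.9 CPM (SD, n = 3) in WT and 435 ± 48.9 CPM (SD, n = 3) in KI, a log2 fold change of -0.69 (SE 0.13, edgeR adjusted p = 0.0209). The two-sided exact permutation test of the 6 values gave p = 0.1, the smallest that 3 against 3 can reach. Sex was read from *Xist* and Y-linked counts. Males had 647 CPM in WT (1 library) and 397 to 490 CPM in KI. Females had 685 to 770 CPM in WT and 418 CPM in KI (1 library). The direction was the same in both sexes, with a single library on 1 side of each comparison. The call rested on most of the striatal libraries: the adjusted p was 0.146 without WT replicate 2, 0.0691 without WT replicate 3, 0.127 without KI replicate 1 and 0.131 without KI replicate 3. It was 0.0743 when the striatal libraries were fitted alone.

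In the prefrontal cortex *Kcnab1* was at 101, 109 and 90.0 CPM in WT and at 115, 156 and 134 CPM in KI. Here every KI library lay above every WT library, the reverse of the striatum, but the log2 fold change of 0.43 (SE 0.13) did not pass the test (edgeR adjusted p = 0.539). In the cerebellum the libraries overlapped, with 206 to 271 CPM in WT and 186 to 239 CPM in KI and a log2 fold change of -0.15 (SE 0.12). The KI effect in striatum minus that in prefrontal cortex was -1.12 on the log2 scale (SE 0.19), with an unadjusted p of 1.51e-05 and an edgeR adjusted p of 0.254 over all genes. DESeq2 called this difference (adjusted p = 0.000388), so whether the regions differed for *Kcnab1* depended on the tool.

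**Figure D2:**
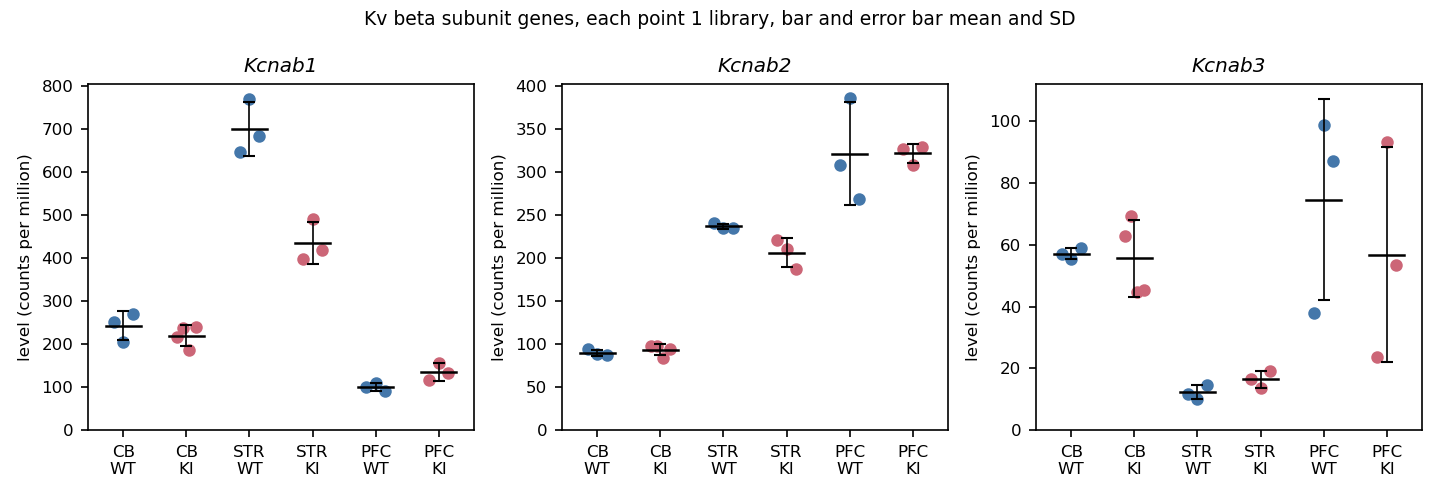
Level in CPM on the vertical axis for *Kcnab1*, *Kcnab2* and *Kcnab3* in each of the 19 libraries, by region and genotype, with the mean and SD of each group. For *Kcnab1* the 3 KI libraries of the striatum, at 397 to 490 CPM, lie below the 3 WT libraries, at 647 to 770 CPM, and the 3 KI libraries of the prefrontal cortex lie above the WT libraries.

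RefSeq gives *Kcnab1* 3 starts, and counts per gene do not tell them apart. The first of them lies far before the GENCODE M21 gene given above and the second shortly before it, so only the third is inside that span. The windows of these starts (GRCm38.p6, plus strand, 250 bases before to 50 after each start) are shown because TBP binds the TATA box. The letters TATAAA and GGGCGG (the GC box bound by SP1) were searched on both strands and are in capitals, so that a match on the other strand reads CCGCCC or TTTATA.
Kcnab1 start 1, chr3:64948962-64949261: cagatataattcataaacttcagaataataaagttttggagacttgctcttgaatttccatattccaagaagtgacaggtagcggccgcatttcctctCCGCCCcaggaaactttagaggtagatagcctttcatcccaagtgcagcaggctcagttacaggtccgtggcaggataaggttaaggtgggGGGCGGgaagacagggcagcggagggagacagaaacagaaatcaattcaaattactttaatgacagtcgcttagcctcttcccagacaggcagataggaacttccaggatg
Kcnab1 start 2, chr3:65108764-65109063: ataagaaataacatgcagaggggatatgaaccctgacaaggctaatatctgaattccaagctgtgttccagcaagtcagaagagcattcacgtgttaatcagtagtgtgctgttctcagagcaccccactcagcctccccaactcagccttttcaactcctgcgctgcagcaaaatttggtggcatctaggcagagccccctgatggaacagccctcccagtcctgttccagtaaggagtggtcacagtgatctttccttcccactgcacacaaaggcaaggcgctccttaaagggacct
Kcnab1 start 3, chr3:65187853-65188152: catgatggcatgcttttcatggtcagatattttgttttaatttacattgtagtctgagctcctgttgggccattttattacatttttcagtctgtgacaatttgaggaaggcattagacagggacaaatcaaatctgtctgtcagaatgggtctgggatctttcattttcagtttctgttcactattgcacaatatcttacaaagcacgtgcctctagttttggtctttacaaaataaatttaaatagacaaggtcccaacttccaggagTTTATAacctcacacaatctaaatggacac
The first window held 2 matches to GGGCGG, at bases -61 and, on the other strand, -152 from the start, the second held no match to either motif, and the third held TATAAA on the other strand from base 21 after the start. RefSeq gave windows for 31 of the 41 genes, 49 windows in all. TATAAA was in 4.08% of these, in *Kcnab1* and *Kcnj9*, and in 13.6% of all 32851 windows. GGGCGG was in 46.9% of them, from 22 genes, and in 35.7% of all windows.

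Markers of medium spiny neurons moved in the same direction as *Kcnab1* in the striatum. Their summed level was 15502, 16025 and 13695 CPM in WT striatum and 8170, 11452 and 8840 CPM in KI striatum, so the groups did not overlap. Of the 12 markers, 11 had a negative log2 fold change and 1 a positive one, the median was -0.64, and none passed the test, with 2 at an unadjusted p under 0.05. In bulk tissue fewer cells of a type and less RNA per cell cannot be told apart, and the part of this in the *Kcnab1* difference was not tested. The same markers leaned the other way in the prefrontal cortex, as *Kcnab1* did, with 11 of 12 positive and a median of 0.50. None passed the test there, and 1 had an unadjusted p under 0.05. Their sum was 695, 571 and 1369 CPM in WT and 1270, 1726 and 438 CPM in KI, so the sums overlapped. KI replicate 3, with the lowest of these sums, held 134 CPM of *Kcnab1*, above all WT libraries. For the KI effect in striatum minus prefrontal cortex 11 of the 12 markers were negative, with a median of -1.30, and 3 had an unadjusted p under 0.05. A link of the markers to the *Kcnab1* difference between regions was not tested.

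**Figure D3:**
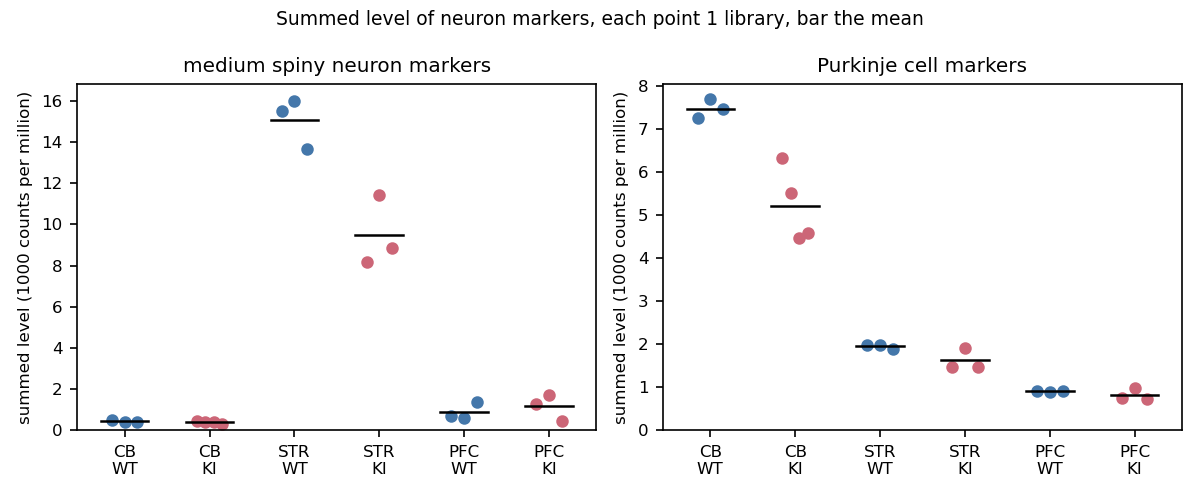
Summed level of the 12 medium spiny neuron markers (left) and the 10 Purkinje cell markers (right), in units of 1000 CPM, for each library by region and genotype, with the group mean. KI striatum lies at 8170 to 11452 CPM against 13695 to 16025 CPM in WT, and KI cerebellum at 4454 to 6317 CPM of Purkinje markers against 7242 to 7678 CPM in WT.

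The other Kv beta genes did not pass the test. *Kcnab2*, the Kv beta 2 subunit that helps to place Kv1 channels on axons, was at 241, 235 and 235 CPM in WT striatum and 221, 211 and 188 CPM in KI striatum. These groups did not overlap, with a log2 fold change of -0.20 (SE 0.10, edgeR adjusted p = 0.661). In the cerebellum *Kcnab2* was at 94.1, 88.3 and 87.1 CPM in WT and 97.7, 98.1, 84.3 and 94.6 CPM in KI, and in the prefrontal cortex at 309, 387 and 269 CPM in WT and 327, 309 and 329 CPM in KI. Both of these comparisons overlapped. *Kcnab3*, the Kv beta 3 subunit, varied widely within groups, at 37.9, 99.0 and 87.2 CPM in WT prefrontal cortex and 23.8, 93.3 and 53.4 CPM in KI. It was at 11.8, 10.1 and 14.6 CPM in WT striatum and 16.6, 13.6 and 19.2 CPM in KI, and at 57.1, 55.4 and 59.0 CPM in WT cerebellum and 62.9, 69.5, 44.8 and 45.5 CPM in KI. The groups overlapped in every region.

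None of the 6 Kv1 genes, the partners of the beta subunits, passed the test. The smallest unadjusted p among them, 0.202, belonged to *Kcna4* (Kv1.4, a rapidly inactivating channel of axons) in the striatum, at 97.1, 112 and 116 CPM in WT and 67.6, 107 and 76.8 CPM in KI. Those libraries overlapped, and the log2 fold change was -0.37 (SE 0.28). It was at 26.8, 20.6 and 39.5 CPM in WT prefrontal cortex and 32.1, 34.8 and 22.0 CPM in KI, and under 7 CPM in every cerebellar library. *Kcnb2*, the Kv2.2 delayed rectifier, was at 38.4, 44.2 and 69.7 CPM in WT prefrontal cortex and 31.3, 39.0 and 34.2 CPM in KI, with a log2 fold change of -0.54 (SE 0.24, edgeR adjusted p = 0.828). The 69.7 CPM came from WT replicate 3, the library with olfactory bulb markers. With 1 library left out, the log2 fold change ran from -0.71 to -0.25. In the cerebellum *Kcnb2* libraries ran from 10.9 to 13.6 CPM in WT and 12.0 to 17.5 CPM in KI, and in the striatum from 11.8 to 18.4 CPM in WT and 9.32 to 17.7 CPM in KI. Its groups overlapped in all regions.

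Of the 3 Kv3 genes, whose fast channels let neurons fire at high rates, none passed the test. *Kcnc4* (Kv3.4) was at 5.94, 5.13 and 11.6 CPM in WT striatum and 18.9, 8.58 and 12.0 CPM in KI striatum, a log2 fold change of 0.81 (SE 0.31, edgeR adjusted p = 0.447). One WT library lay within the KI range. It ran from 29.8 to 43.5 CPM in WT cerebellum and 36.5 to 48.4 CPM in KI, and from 45.7 to 69.7 CPM in WT prefrontal cortex and 53.6 to 86.8 CPM in KI. *Kcnc1* (Kv3.1) in the prefrontal cortex was at 87.1, 114 and 105 CPM in WT and 74.7, 85.8 and 85.6 CPM in KI. These groups did not overlap, and the log2 fold change of -0.32 (SE 0.13) had an edgeR adjusted p of 0.791.

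The Kv4 channels and their KChIP partners carry the A-type current of dendrites. *Kcnd2* (Kv4.2), the leading Kv4 gene of all 3 regions, was at 339, 341 and 423 CPM in WT cerebellum and 268, 270, 269 and 308 CPM in KI cerebellum. All KI libraries were below all WT libraries, with a log2 fold change of -0.40 (SE 0.12, edgeR adjusted p = 0.168). In the striatum it was at 202, 199 and 191 CPM in WT and 155, 182 and 143 CPM in KI, again with no overlap (log2 fold change -0.30, SE 0.13, edgeR adjusted p = 0.522). In the prefrontal cortex the groups overlapped, with 68.8, 89.0 and 107 CPM in WT and 81.6, 85.5 and 81.2 CPM in KI. *Kcnip4* (KChIP4) was at 153, 207 and 198 CPM in WT cerebellum and 135, 135, 143 and 145 CPM in KI cerebellum, with no overlap and a log2 fold change of -0.42 (SE 0.14, edgeR adjusted p = 0.224). It overlapped elsewhere, with 50.5 to 73.9 CPM in WT striatum and 48.0 to 53.9 CPM in KI, and 93.7 to 109 CPM in WT prefrontal cortex and 80.0 to 119 CPM in KI. *Kcnip1* (KChIP1) likewise lay lower in KI cerebellum without overlap, at 99.3 to 117 CPM in WT and 68.6 to 92.2 CPM in KI (log2 fold change -0.45, SE 0.27). *Kcnip2* (KChIP2), the leading KChIP of the striatum, was at 371, 329 and 336 CPM in WT striatum and 280, 288 and 251 CPM in KI, with no overlap and a log2 fold change of -0.34 (SE 0.36).

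Purkinje cell markers lay lower in the same cerebellar libraries. Their sum was 7242, 7678 and 7448 CPM in WT and 6317, 5506, 4454 and 4583 CPM in KI. All 10 markers had a negative log2 fold change with a median of -0.47, and 1, *Pcp2*, passed the test as lower. Of the 10 granule cell markers 8 were negative, with a median of -0.20, and none passed the test. All 8 microglia markers were positive with a median of 0.77, and 6 passed the test as higher. The sum of the microglia markers was 153 to 157 CPM in WT and 225 to 310 CPM in KI. The part of these markers in the cerebellar values of the channel genes was not tested.

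*Kcnq3* (Kv7.3), a subunit of the M-current that damps repetitive firing, was at 65.6, 71.1 and 56.7 CPM in WT striatum and 46.1, 55.2 and 51.5 CPM in KI striatum. The groups did not overlap, with a log2 fold change of -0.34 (SE 0.16, edgeR adjusted p = 0.615). In cortex it was at 58.6, 51.2 and 41.7 CPM in WT and 57.8, 74.9 and 51.0 CPM in KI, with overlap. It was low in the cerebellum, at 6.81 to 10.1 CPM in WT and 6.93 to 9.08 CPM in KI.

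In the ether-a-go-go group *Kcnh3*, the gene of the forebrain channel Kv12.2, lay lower in KI libraries of all 3 regions without overlap. In the cerebellum it was at 2.12, 1.70 and 2.10 CPM in WT and 0.844, 1.22, 0.336 and 0.544 CPM in KI. The means were 1.98 ± 0.236 CPM (SD, n = 3) and 0.736 ± 0.384 CPM (SD, n = 4), and the log2 fold change was -1.40 (SE 0.27, edgeR adjusted p = 0.0154). These values rest on 26 to 33 reads in each WT library and 6 to 22 in each KI library, and the two-sided exact permutation test gave p = 0.0571, the smallest possible for 3 against 4. The adjusted p was 0.0666 without WT replicate 1, the WT library with choroid plexus markers, 0.078 without WT replicate 3, and 0.169 when the cerebellar libraries were fitted alone. Within females *Kcnh3* was at 1.70 to 2.12 CPM in WT and 0.336 to 0.844 CPM in KI, and within males at 2.10 CPM in WT (1 library) and 0.544 to 1.22 CPM in KI.

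The forebrain held far more *Kcnh3*. In the striatum it was at 193, 208 and 207 CPM in WT and 127, 163 and 130 CPM in KI, a log2 fold change of -0.53 (SE 0.14, edgeR adjusted p = 0.129). DESeq2 called this difference (adjusted p = 0.00143). The prefrontal cortex held 204, 238 and 223 CPM in WT and 168, 160 and 185 CPM in KI, with a log2 fold change of -0.37 (SE 0.14, edgeR adjusted p = 0.718). The KI effects did not pass the test of a difference between regions, with edgeR adjusted p of 0.543 for striatum and cerebellum and 0.483 for cerebellum and prefrontal cortex. One base of the annotated *Kcnh3* exons overlaps an exon of *Mcrs1* on the other strand.

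**Figure D4:**
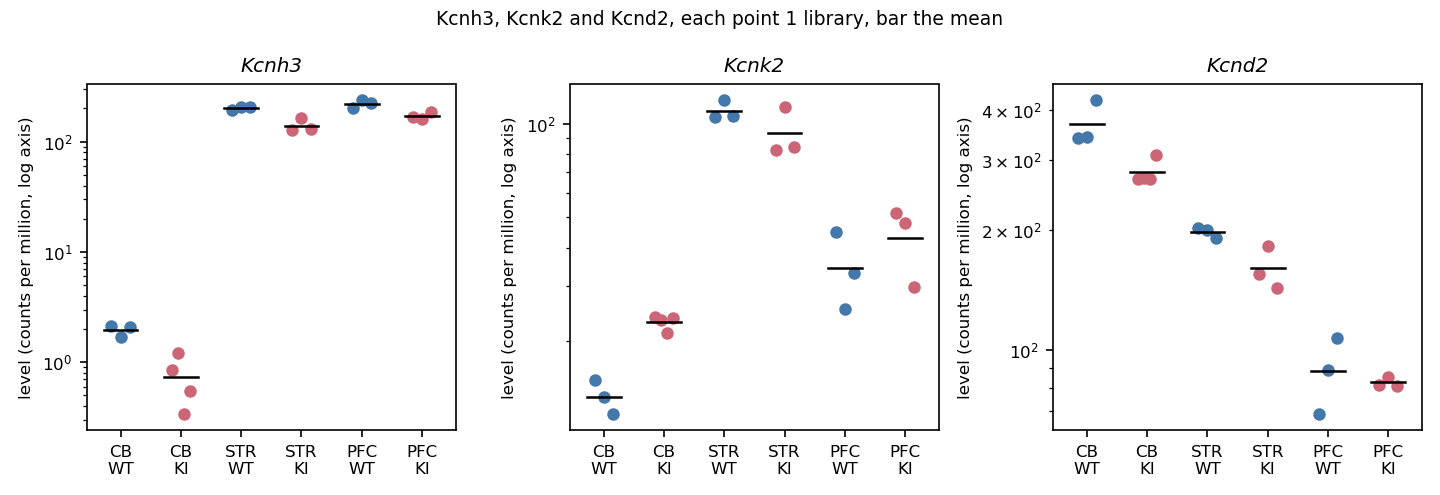
Level in CPM on a log axis for *Kcnh3*, *Kcnk2* and *Kcnd2* in each of the 19 libraries, by region and genotype, with the group mean. KI libraries of *Kcnh3* lie below WT libraries in each region, at 0.336 to 1.22 CPM against 1.70 to 2.12 CPM in the cerebellum, and those of *Kcnk2* lie above all WT libraries in the cerebellum alone.

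*Kcnj9* (GIRK3), a G protein-gated inward rectifier, was at 194, 197 and 167 CPM in WT cerebellum and 149, 155, 137 and 122 CPM in KI cerebellum. The groups did not overlap, with a log2 fold change of -0.40 (SE 0.16, edgeR adjusted p = 0.384). It overlapped in the other regions, at 33.5 to 51.3 CPM in WT striatum and 38.7 to 44.9 CPM in KI, and at 116 to 194 CPM in WT prefrontal cortex and 132 to 185 CPM in KI. *Kcnj4* (Kir2.3), the leading inward rectifier of the striatum, was at 98.9, 90.7 and 90.4 CPM in WT striatum and 66.4, 81.5 and 63.5 CPM in KI. This too was without overlap, with a log2 fold change of -0.41 (SE 0.21, edgeR adjusted p = 0.668).

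*Kcnk2* (TREK-1), a K2P channel opened by stretch and lipids, came nearest to a rise. In the cerebellum it was at 15.0, 13.2 and 11.6 CPM in WT and 24.0, 23.4, 21.3 and 23.8 CPM in KI. All KI libraries lay above all WT libraries, with a log2 fold change of 0.80 (SE 0.20), and the edgeR adjusted p was 0.0708. DESeq2 called it (adjusted p = 0.00735), as did edgeR on the cerebellar libraries alone (adjusted p = 0.0154). In the common edgeR fit the adjusted p was 0.0358 without WT prefrontal cortex replicate 1, 0.0449 without WT replicate 2 and 0.0294 without KI replicate 3 of that region. It was 0.103 to 0.321 with any 1 of the 7 cerebellar libraries left out, the highest without WT cerebellum replicate 3. The striatal libraries overlapped, at 105, 119 and 106 CPM in WT and 82.3, 113 and 84.0 CPM in KI. So did those of the prefrontal cortex, at 44.9, 25.4 and 33.1 CPM in WT and 51.5, 48.0 and 29.8 CPM in KI. The KI effect in striatum minus cerebellum was -1.03 (SE 0.27, edgeR adjusted p = 0.306). Of the other K2P genes, *Kcnk3* (TASK-1) lay lower in KI cerebellum without overlap, at 162 to 174 CPM in WT and 128 to 151 CPM in KI (log2 fold change -0.22, SE 0.20).

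None of the channel genes opened by calcium or sodium passed the test. *Kcnma1*, the pore of the BK channel, was at 218, 233 and 224 CPM in WT cerebellum and 207, 193, 156 and 158 CPM in KI cerebellum. All KI libraries were below all WT libraries (log2 fold change -0.34, SE 0.10, edgeR adjusted p = 0.176). Prefrontal cortex KI libraries were also below, at 240, 219 and 227 CPM in WT and 210, 205 and 201 CPM in KI (log2 fold change -0.15, SE 0.11), and in the striatum they overlapped, at 116 to 154 CPM in WT and 123 to 134 CPM in KI. *Kcnn2* (SK2), which shapes the pause after a spike, was at 72.9, 78.6 and 63.1 CPM in WT prefrontal cortex and 55.7, 48.4 and 69.4 CPM in KI, with overlap and a log2 fold change of -0.31 (SE 0.14, edgeR adjusted p = 0.828). It was at 75.6 to 80.1 CPM in WT cerebellum and 72.4 to 85.4 CPM in KI, and at 37.8 to 57.6 CPM in WT striatum and 41.8 to 46.7 CPM in KI. *Kcnt1* (Slack), a sodium-activated channel, was at 153, 160 and 163 CPM in WT striatum and 116, 132 and 111 CPM in KI striatum. These groups did not overlap (log2 fold change -0.40, SE 0.12, edgeR adjusted p = 0.207). It overlapped in the cerebellum, at 205 to 230 CPM in WT and 165 to 221 CPM in KI, and in the prefrontal cortex, at 90.5 to 110 CPM in WT and 86.2 to 112 CPM in KI.

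The remaining genes did not pass the test in any region. *Kcna1*, the leading Kv1 gene, was at 229, 242 and 230 CPM in WT striatum and 221, 203 and 216 CPM in KI striatum, with no overlap and a log2 fold change of -0.13 (SE 0.16). *Kcnj2* (Kir2.1), an inward rectifier of medium spiny neurons, ran from 15.9 to 19.8 CPM in WT striatum and from 12.2 to 15.9 CPM in KI striatum, also with no overlap before rounding (log2 fold change -0.27, SE 0.27). *Kcnt2* (Slick), a sodium-activated channel, had the highest estimate of the group in KI cerebellum, 0.96 (SE 0.40, edgeR adjusted p = 0.418), on 2 to 9 reads per WT library and 6 to 21 per KI library. For *Kcna2*, *Kcna3*, *Kcna5*, *Kcna6*, *Kcnc2*, *Kcnd1*, *Kcnd3*, *Kcnip3*, *Kcnq5*, *Kcnh1*, *Kcnh7*, *Kcnj3*, *Kcnj6*, *Kcnk1*, *Kcnk9*, *Kcnmb4*, *Kcnn1* and *Kcnn3* KI and WT libraries overlapped in every region. Across regions, 9 of the 41 genes had a negative estimate in all 3 (*Kcna1*, *Kcna2*, *Kcnc1*, *Kcnd2*, *Kcnh1*, *Kcnh3*, *Kcnj2*, *Kcnk1* and *Kcnma1*) and 6 a positive one (*Kcna5*, *Kcnc4*, *Kcnd3*, *Kcnj3*, *Kcnk9* and *Kcnn1*). The shares of all tested genes with the same sign in every region were not counted, so these counts have no background to be read against.

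Between WT regions nearly all of these genes differed. From cerebellum to striatum 38 of the 41 genes passed the test, 20 higher in the cerebellum (27.8% of all tested genes were) and 18 lower (28.7%). From cerebellum to prefrontal cortex 10 were higher (25.1% of all genes) and 19 lower (26.9%), and from striatum to prefrontal cortex 9 were higher (14.0%) and 24 lower (16.4%). Differences in all 3 comparisons were found for 21 of the 41 genes and for 12.6% of all tested genes. *Kcnip3* (KChIP3, also a calcium-sensitive transcription repressor) was the one gene that passed none of them, at 46.9 ± 9.39 RPKM in WT cerebellum, 46.9 ± 2.22 RPKM in WT striatum and 52.0 ± 12.7 RPKM in WT prefrontal cortex (SD, n = 3 each).

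**Figure D5:**
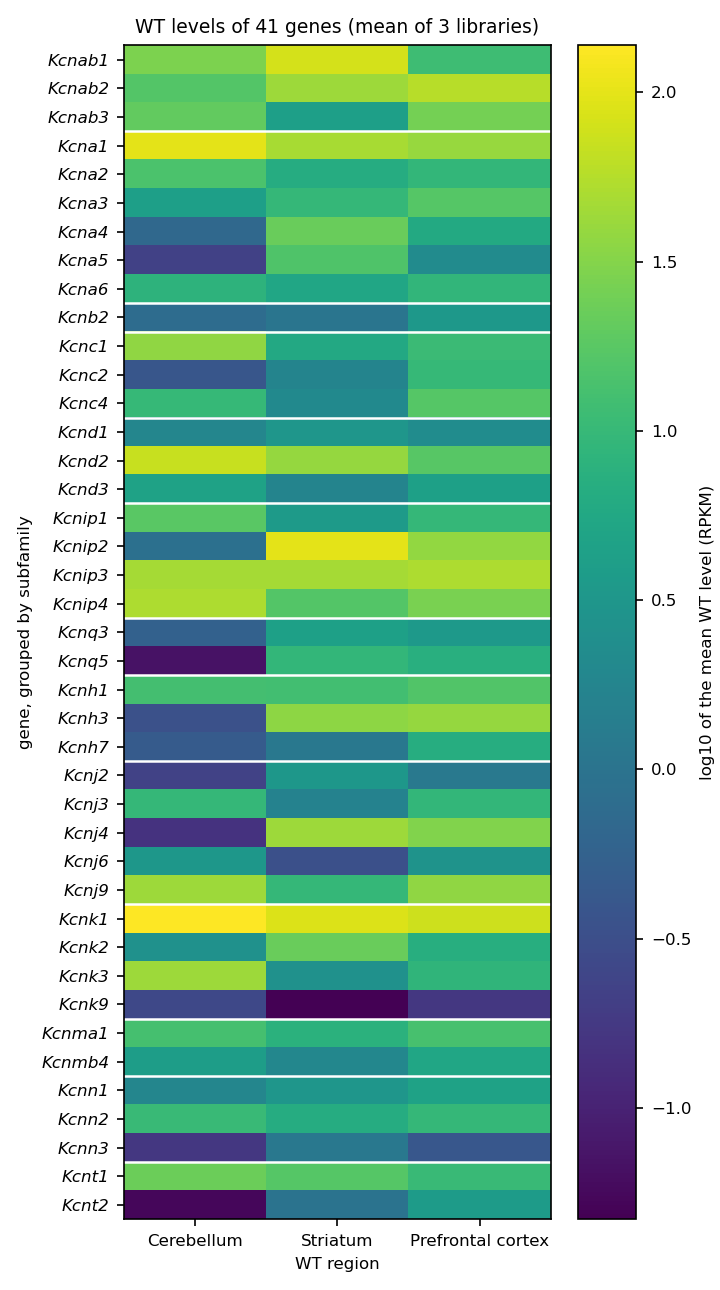
Mean WT level of each of the 41 genes (rows, with lines between subfamilies) in the 3 regions (columns), as the log10 of RPKM over 3 libraries each. *Kcnk1* is high in all regions, *Kcnip2* and *Kcnab1* stand out in the striatum, and *Kcnq5*, *Kcnj4* and *Kcnt2* are near the bottom of the scale in the cerebellum.

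The striatum was higher than both other regions for 7 genes (*Kcnab1*, *Kcna4*, *Kcna5*, *Kcnip2*, *Kcnj2*, *Kcnk2* and *Kcnn3*), a pattern of 8.88% of all tested genes, and lower than both for 16 (8.63%). The cerebellum was higher than both for 9 (19.0%) and lower than both for 16 (19.5%). The prefrontal cortex was higher than both for 9 (7.85%) and lower than both for 3 (4.36%). Of the 7 genes highest in WT striatum 6 had a negative KI effect there, with a median log2 fold change of -0.27. Of the 9 highest in WT cerebellum all 9 had a negative KI effect there, with a median of -0.26. For the 9 highest in WT prefrontal cortex the median was -0.033, with 5 negative. The same WT libraries enter the choice of these genes and their KI effect, which pulls the effect towards negative values. The share of negative effects among all tested genes with the same WT pattern was not counted, so no test was made.

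Per length, *Kcnk1* (TWIK-1, a K2P channel) led the cerebellum at 138 ± 1.32 RPKM (SD, n = 3). It was followed by *Kcna1* (Kv1.1, the low-threshold channel mutated in episodic ataxia) at 98.1 ± 8.10 RPKM and *Kcnd2* at 71.4 ± 9.27 RPKM, and the libraries of these 3 genes did not overlap each other. In the striatum *Kcnip2* at 99.3 ± 6.45 RPKM, *Kcnk1* at 90.5 ± 14.5 RPKM and *Kcnab1* at 81.5 ± 7.33 RPKM led. *Kcnk1* overlapped both of its neighbours there. In the prefrontal cortex *Kcnk1* at 75.7 ± 7.87 RPKM and *Kcnab2* at 57.6 ± 10.8 RPKM led, also with overlapping libraries. Summed over all 41 genes the level was 739 ± 33.7 RPKM in the cerebellum, 730 ± 12.0 RPKM in the striatum and 661 ± 49.3 RPKM in the prefrontal cortex.

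In some subfamilies the leading gene changed with the region, and in others it did not. Of the Kv beta RPKM *Kcnab1* made up 43.8% in WT cerebellum, 63.5% in WT striatum and 12.4% in WT prefrontal cortex, where *Kcnab2* made up 60.8%. The range over libraries for *Kcnab1* was 40.5% to 46.5%, 61.4% to 66.3% and 10.9% to 14.6%, so the regions did not overlap. In the fit *Kcnab1* was 7.00-fold higher in WT striatum than in WT prefrontal cortex and 2.88-fold higher than in WT cerebellum. *Kcnip4* led the KChIP genes in the cerebellum with 43.9% of their RPKM, *Kcnip2* in the striatum with 59.8% and *Kcnip3* in the prefrontal cortex with 40.8%. *Kcnc1* made up 77.8% of the Kv3 RPKM in the cerebellum and 29.1% in the prefrontal cortex, where *Kcnc4* made up 44.6%. Among inward rectifiers *Kcnj9* made up 76.6% in the cerebellum and *Kcnj4* 74.9% in the striatum. The Kv1, Kv4, K2P, BK, SK and sodium-activated genes kept the same leading gene in all 3 regions, *Kcna1*, *Kcnd2*, *Kcnk1*, *Kcnma1*, *Kcnn2* and *Kcnt1*.

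The widest WT ratios set the cerebellum apart. *Kcnj4* was at 0.386, 0.262 and 0.324 CPM in WT cerebellum, on 4 to 6 reads per library, and at 98.9, 90.7 and 90.4 CPM in WT striatum, 281-fold higher. *Kcnq5* (Kv7.5) was at 0.386, 0.590 and 0.647 CPM in WT cerebellum and 65.3, 68.4 and 79.3 CPM in WT striatum, 131-fold higher. *Kcnip2* was at 5.14, 2.29 and 1.86 CPM in WT cerebellum and 109-fold higher in WT striatum. The forebrain libraries lay far above the cerebellar ones for all 3. *Kcnh3* was likewise 112-fold higher in WT prefrontal cortex than in WT cerebellum. *Kcna5* (Kv1.5) was at 0.90, 0.197 and 0.809 CPM in WT cerebellum and 38.9, 46.3 and 44.7 CPM in WT striatum, 68.1-fold higher. *Kcnn3* (SK3) was at 2.06, 1.44 and 1.94 CPM in WT cerebellum and 9.35, 13.7 and 12.7 CPM in WT striatum, 6.54-fold higher. Both were also higher in the striatum than in the prefrontal cortex.

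*Kcnt2*, *Kcnc2* (Kv3.2) and *Kcnb2* had their largest ratios between cortex and cerebellum. *Kcnt2* was at 0.578, 0.393 and 0.162 CPM in WT cerebellum, on 2 to 9 reads per library, and at 24.6, 29.9 and 23.1 CPM in WT prefrontal cortex, 64.9-fold higher. *Kcnc2* was at 3.73, 2.95 and 1.78 CPM in WT cerebellum and 65.2, 81.1 and 63.3 CPM in WT prefrontal cortex, 24.4-fold higher, and *Kcnb2* was 4.30-fold higher. In the other direction *Kcnk3* was at 162, 174 and 168 CPM in WT cerebellum and 8.75, 10.0 and 13.4 CPM in WT striatum, 15.7-fold higher in the cerebellum. *Kcnd2* was 4.17-fold higher in WT cerebellum than in WT prefrontal cortex. *Kcnmb4* (the BK beta 4 subunit) was at 6.14, 5.13 and 7.80 CPM in WT striatum and 21.4, 15.3 and 16.4 CPM in WT prefrontal cortex, 2.78-fold higher. No WT libraries overlapped in these pairs. All of these passed the edgeR test with adjusted p of at most 1.86e-05. For *Kcnj4*, *Kcnq5*, *Kcna5* and *Kcnt2* the read filter was met by the forebrain libraries, where they are high. Their ratios to the cerebellum rest on few cerebellar reads, and their passing the test is no separate support for them.

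A list of 50 other potassium channel genes and partners, which does not hold *Kcnj10*, gave no call. Of these, 43 were tested, and none passed the edgeR test between genotypes in any region, with 7 (16.3%) for cerebellum, 2 (4.65%) for striatum and 4 (9.30%) for cortex at an unadjusted p under 0.05, where the shares of all tested genes were 10.1%, 8.12% and 5.93%. *Dpp6* and *Dpp10* encode single-pass partners of Kv4 channels. The log2 fold changes of *Dpp6* were -0.15 (SE 0.11) in cerebellum, 0.17 (SE 0.12) in striatum and 0.12 (SE 0.12) in cortex. In the same order they were 0.057 (SE 0.12), -0.15 (SE 0.13) and -0.048 (SE 0.13) for *Dpp10*. *Kcnj10*, the Kir4.1 channel of astrocytes and no member of the group, was the 1 of 8 astrocyte markers that passed the test, as lower in KI striatum (log2 fold change -1.79, SE 0.36, edgeR adjusted p = 0.0299) and KI prefrontal cortex (-2.10, SE 0.36, edgeR adjusted p = 0.0246). The libraries did not keep the strand, and 19 of the 41 genes share exon bases with a gene on the other strand, *Kcnab1* 201 of 8593 bases, so reads of such partners cannot be told apart.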

How the data were processed

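The authors mapped reads and deposited counts per Ensembl gene for each library, without normalization; per the labels the submitters' processing notes name STAR 2.5.2b, HTSeq, DESeq2 1.10.1 and GRCm38.p3, while the methods name Cufflinks and Cuffdiff. Libraries were made with the SMART-Seq v4 and Nextera XT kits, which keep no strand. A deposited table of DESeq2-normalized values was not used. Symbols, positions and exon lengths came from GENCODE M21 (40254 of 41128 identifiers matched); sequences came from RefSeq (GRCm38.p6).

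Region, genotype and replicate came from the sample titles. The members and gene lists were chosen with earlier results of these data known. Counts were fitted in R 4.3.3 with edgeR 4.0.16: filterByExpr, TMM, and one quasi-likelihood model of 6 groups (13 residual degrees of freedom, common biological coefficient of variation 0.191). P values were adjusted over 16841 genes at a threshold of 0.05. Fold changes are from this fit. The standard error (SE) is the absolute log2 fold change divided by the square root of the F statistic of its test. CPM values have no prior count. Permutation tests used log2 of CPM plus 2. The steps were tested on simulated data.

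Named genes were *Kcnab1*, those that passed a KI or interaction test, the other Kv beta genes, the gene of each subfamily with the smallest p between genotypes, the gene with the highest WT RPKM in each region and that with the largest WT ratio of each subfamily. *Kcnc1*, *Kcnip1*, *Kcnip3*, *Kcnj10* and the other genes given for their rank or their libraries without overlap were named after their values were seen.

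The methods give 3 to 4 mice per genotype, while the series design text gives 3 per group. The labels tie no library to an animal, so p values measure the spread between libraries. Same-numbered libraries of striatum and prefrontal cortex deviated together (correlations 0.233 to 0.368 in 6 of 6 pairs, with the same sex), which was taken as pairing from the data; KI and WT numbers did not pair. Read counts are not molecules. Alternatives were DESeq2 1.42.0, its size factors, 2 count filters, compared libraries alone, replicate blocks, a sex covariate, limma-trend (limma 3.58.1) and each library left out.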

Additional observations from a re-analysis of the deposited data

Results flagged for a closer look

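In the 4 KI libraries of the cerebellum, 5 of the 41 genes had 1 library far from the other 3 by Dixon's test, and chance flags about 1 in 20 groups. It was the highest library for *Kcnd2* at 308 CPM (replicate 4), *Kcnip2* at 8.59 CPM (replicate 2) and *Kcnk9* (TASK-3) at 5.02 CPM (replicate 4). It was the lowest library for *Kcnh1* (Kv10.1) at 69.5 CPM and *Kcnk3* at 128 CPM, replicate 1 in both.

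For *Kcnab1* all KI libraries lay below all WT libraries in the striatum and above them in the prefrontal cortex. The KI effect in the striatum minus that in the prefrontal cortex was -1.12 on the log2 scale (SE 0.19), with an adjusted p of 0.254 in edgeR.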

How the results depend on the processing

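Across 29 other settings, 19 of which left out 1 library, no named result reversed. Of 455 values of the comparisons under other settings, 426 kept their side of the threshold, or stayed within 1.5 times for a count. The exceptions are these, and their cause was not tested where none is named. The count of genes higher in KI cerebellum was 1 (*Kcnk2*) with DESeq2, with the cerebellar libraries alone and with limma-trend, and 0 to 1 with 1 library left out. The count lower in KI cerebellum was 0 with at least 10 counts in every library (*Kcnh3* was then not tested), with the cerebellar libraries alone and with the replicate block within regions, and 0 to 1 with 1 library left out. The count lower in KI striatum was 2 with DESeq2, 0 with the striatal libraries alone and with the replicate block, and 0 to 1 with 1 library left out. Over all genes DESeq2 called 336 against 140 with edgeR in the cerebellum, 214 against 98 in the striatum and 52 against 18 in the prefrontal cortex. DESeq2 called 1 gene, *Kcnab1*, for a different KI effect in striatum and prefrontal cortex.

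For *Kcnab1* in the striatum the log2 fold change was -0.67 (adjusted p = 0.0743, edgeR) with the striatal libraries alone and -0.69 (adjusted p = 0.0598, edgeR) with the replicate block within regions, and -0.78 to -0.61 with 1 library left out. For *Kcnh3* in the cerebellum it was -1.41 (adjusted p = 0.169, edgeR) with the cerebellar libraries alone and -1.29 (adjusted p = 0.11, edgeR) with the replicate block, and -1.76 to -1.16 with 1 library left out. The numbers did not pair KI with WT libraries. For striatum and prefrontal cortex, whose numbers did pair, a replicate block chosen after seeing the data gave -1.11 (adjusted p = 0.196, edgeR) for the *Kcnab1* difference between regions and changed none of these genes' interaction calls; it gave 12 genes higher and 23 lower in WT striatum than in WT prefrontal cortex. Counting limits the cerebellar values of *Kcnh3*, *Kcnj4*, *Kcnq5* and *Kcnt2*.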
